A study of Mus musculus with 24 samples.

Results

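The complement genes described here are 10 genes chosen by name, covering the chains of C1q (C1qa, C1qb and C1qc), the components from which convertases are built (C2, C3, C4b and Cfb), the inhibitor Serping1 and the receptors C3ar1 and C5ar1. Members were found as rows of the value table whose platform annotation gave 1 gene symbol, with the probe set of highest mean over the 24 arrays standing for the gene. Of the 10 genes, 9 were measured by a probe set of that kind, among 17097 genes in all, and C3, the central component, was not analysed here. The rule that names them uses their role in the pathway and no measured value, though it was set with earlier results of these data known.

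The study profiled total RNA from mouse spinal cord, with 1 Affymetrix array per animal, to compare experimental autoimmune encephalomyelitis (EAE) caused by Th17 cells with that caused by Th1 cells, and to ask what Act1 contributes. Act1, the product of Traf3ip2, is the adaptor through which the IL-17 receptor signals. The groups were 4 Th17 recipients labelled Act1 KO, 5 wild-type Th17 recipients, 5 wild-type Th1 recipients, 5 naive mice labelled Act1 KO and 5 naive wild-type mice. By the methods all mice were female littermates aged 8 to 12 weeks. Recipients had been irradiated with 500 rad before they were given T cells reactive to a peptide of myelin oligodendrocyte glycoprotein, grown under Th17 or Th1 conditions, and were killed 12 days after the transfer. Naive mice received neither cells nor, as far as the sources used here state, irradiation, so transfer, irradiation and disease cannot be told apart in a comparison with them. The sample labels put the collection at the onset of symptoms and the paper at the peak of disease. The mice that the labels call wild type appear in 1 place of the paper as Act1+/-, so they may carry a disrupted copy of the gene. The name in the labels is used here, and each comparison of labels has this limit. Act1 KO mice were given Th17 cells only.

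Complement is a cascade of plasma and tissue proteins that marks surfaces for uptake and calls in leukocytes. C1q, assembled from 3 kinds of chain, opens the classical pathway, C4 and C2 supply its convertase, and factor B supplies that of the alternative pathway, with C3 as the substrate of both. In the central nervous system C1q is made mainly by microglia and macrophages, and complement is known there for tagging synapses and for its activity in demyelinating lesions.

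Values are log2 expression values made by the authors with RMA, which corrects background, makes the distributions of the arrays alike and summarises each probe set. A difference of 1 is a doubling of signal. The lowest array median was 3.46, and a group whose mean lay under it is called dim. A fold over a dim group is given as a lower bound, taken against 3.46. Differences were tested with limma across all genes and all 24 arrays, two-sided, with Benjamini-Hochberg adjustment, and called at an adjusted p under 0.05. Values of different probe sets are not comparable in level.

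Along the first principal component, with 82.8% of the variance, stood the Th17 recipients labelled Act1 KO at -47.5 to -46.4, within the range of the naive arrays, at -49.1 to -46.4. Wild-type Th17 recipients stood at 65.4 to 74.6, and Th1 recipients 4 and 5, at 55.0 and 55.9, lay below the other Th1 recipients at 67.8 to 68.5. Traf3ip2, the gene that the label says is disrupted, read 5.59 to 5.83 in Th17 recipients and 5.38 to 5.92 in naive mice labelled Act1 KO, against 5.14 to 5.56 in wild-type Th17 recipients and 4.07 to 4.60 in naive wild-type mice. It was thus not lower on the KO-labelled arrays but called higher, by a log2 difference of 1.27 between naive mice (limma adjusted p = 4.66e-08). Between Th17 recipients of the 2 labels the difference was 0.31 (limma adjusted p = 0.0358). Since the place of the probe set relative to the deleted part is unknown, Traf3ip2 cannot check the label, and the cause of its higher level was not tested. Genes that mark spinal cord position (Hoxc8, Hoxc9, Hoxc10 and Hoxd10) averaged 5.56 to 7.05 over the arrays and the 5 measured neuronal markers 10.38 to 11.29, as the tissue label says. Both lists were lower in wild-type recipients than in naive wild-type mice. The log2 differences were -1.08 to -0.54 (position) and -0.78 to -0.63 (neuronal) with Th17 cells, and -1.07 to -0.60 and -0.77 to -0.54 with Th1 cells.

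**Figure D1:**
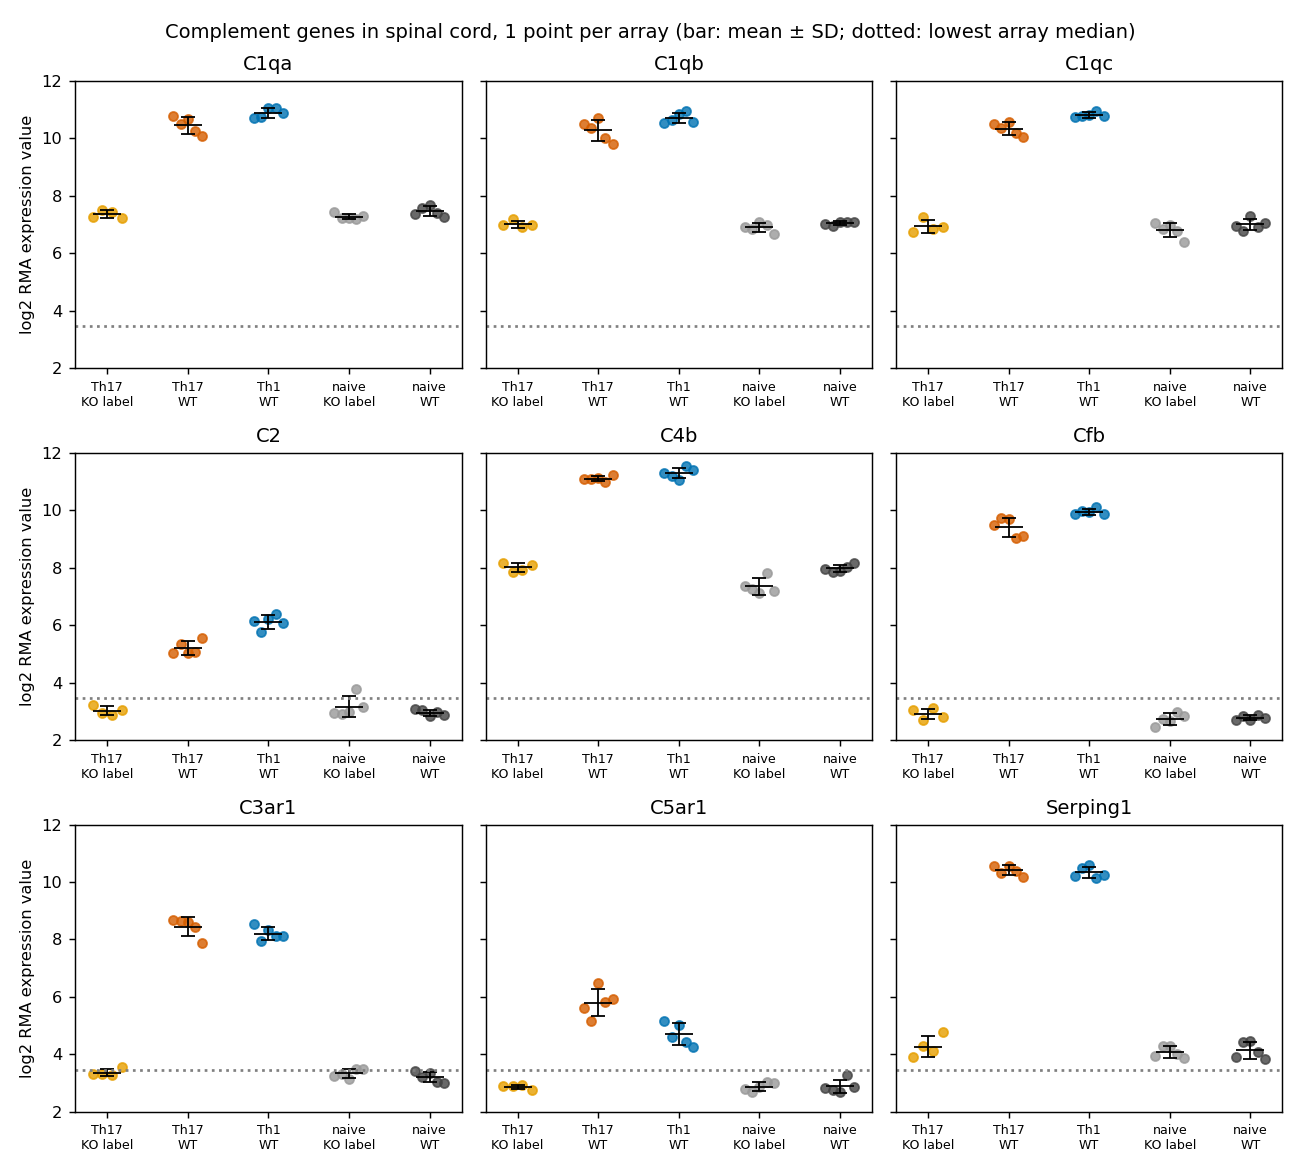
Log2 RMA expression value (vertical axis) of the 9 measured complement genes in 5 groups of spinal cords (horizontal axis). Each point is 1 array, bars give the mean ± SD, and the dotted line is the lowest array median of 3.46. Wild-type Th17 and Th1 recipients lie above the other 3 groups for every gene shown, and the Th17 recipients labelled Act1 KO lie at the level of naive mice, with C4b differing between naive mice of the 2 labels.

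All 9 measured members rose in wild-type Th17 recipients relative to naive wild-type mice, where 43.5% of all genes were called and 18.0% were called higher. The same held for Th1 recipients, where the shares of all genes were 40.8% and 16.7%. The median difference of the members was 3.22 in Th17 and 3.66 in Th1 recipients on the log2 scale, against -0.05 and -0.06 over all genes. Both comparisons use the same 5 naive arrays. No member's groups overlapped in either comparison, a pattern that 15.0% of all genes showed upward for Th17 and 14.1% for Th1. In bulk tissue more cells of a type and more RNA per cell cannot be told apart.

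The 3 chains of C1q, the recognition molecule of the classical pathway, are encoded next to each other on chromosome 4 (GRCm38.p6 gene order) and were read by probe sets 1417381_PM_at (C1qa), 1417063_PM_at (C1qb) and 1449401_PM_at (C1qc). C1qa read 10.78, 10.49, 10.69, 10.27 and 10.07 in wild-type Th17 recipients and 10.71, 10.74, 11.06, 11.07 and 10.90 in Th1 recipients, against 7.39, 7.59, 7.69, 7.42 and 7.26 in naive wild-type mice. The recipients of either kind thus lay clear of the naive mice, while the lowest Th1 values reached into the Th17 range. Relative to naive mice C1qa rose 7.96-fold with Th17 cells (log2 difference 2.99, SE 0.11, limma adjusted p = 6.06e-18) and 10.8-fold with Th1 cells (3.43, SE 0.11, limma adjusted p = 3.17e-19).

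C1qb, the second chain, gave 10.52, 10.37, 10.70, 10.02 and 9.79 in wild-type Th17 recipients, 10.52, 10.64, 10.86, 10.96 and 10.58 in Th1 recipients and 7.02, 6.96, 7.10, 7.10 and 7.11 in naive wild-type mice. Its spread was widest among Th17 recipients (SD 0.37, n = 5), whose mice 4 and 5 were the lowest, as they were for C1qa and C1qc. The third chain, C1qc, was at 10.49, 10.37, 10.59, 10.18 and 10.05 in wild-type Th17 recipients, 10.74, 10.78, 10.83, 10.97 and 10.78 in Th1 recipients and 6.96, 6.77, 7.31, 6.93 and 7.07 in naive wild-type mice. The log2 differences from naive mice were 3.22 for C1qb (SE 0.13) and 3.33 for C1qc (SE 0.12) in Th17 recipients. In Th1 recipients they were 3.66 for C1qb (SE 0.13) and 3.81 for C1qc (SE 0.12). The 3 chains therefore rose by 2.99 to 3.33 in Th17 recipients and by 3.43 to 3.81 in Th1 recipients, and the intervals of the chains overlapped within each comparison.

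Since the 3 chains moved together and their genes adjoin, the bases upstream of the genes were read from RefSeq (GRCm38.p6) for the members that had an entry, which were C1qb, C1qc, C3ar1 and C5ar1. Shown are 250 bases before C1qb (minus strand, chr4:136886201-136886450) and 228 bases before C1qc (minus strand, chr4:136892937-136893164), 5′ to 3′, both ending at the outermost start of the gene, with a match to the NF-kB motif in capitals.
C1qb: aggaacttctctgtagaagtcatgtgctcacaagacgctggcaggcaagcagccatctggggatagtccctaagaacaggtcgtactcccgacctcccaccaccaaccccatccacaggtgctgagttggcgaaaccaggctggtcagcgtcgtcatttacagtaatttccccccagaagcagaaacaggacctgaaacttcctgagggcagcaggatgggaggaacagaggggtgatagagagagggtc
C1qc: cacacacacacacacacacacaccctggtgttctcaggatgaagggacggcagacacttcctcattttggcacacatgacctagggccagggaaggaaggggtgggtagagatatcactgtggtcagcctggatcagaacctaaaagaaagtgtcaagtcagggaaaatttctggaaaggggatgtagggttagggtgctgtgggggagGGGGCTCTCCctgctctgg
The motifs searched on both strands were the gamma-activated site TTCNNNGAA, the interferon-stimulated response element core, the C/EBP motif TTGCNNAA and the NF-kB motif. Among the 4 genes' windows the 1 match was GGGGCTCTCC, and it overlapped no other motif. It began 41 bases before the transcript start on which the C1qc window is set, and that start lies downstream of the outermost start of the gene. Of 32851 windows around gene starts of the mouse, 8.3% held the gamma-activated site, 3.44% the interferon-stimulated core, 10.8% the C/EBP motif and 8.46% the NF-kB motif. A match describes the letters of the window only.

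The convertase components moved by very different amounts. C4b, the mouse C4 gene of the classical pathway (probe set 1418021_PM_at), lay above the array median in every group. It read 11.09, 11.10, 11.13, 10.97 and 11.22 in wild-type Th17 recipients and 11.29, 11.18, 11.07, 11.54 and 11.41 in Th1 recipients, against 7.95, 7.85, 7.90, 8.03 and 8.15 in naive wild-type mice. Values were tight in the Th17 recipients (SD 0.09, n = 5) and no recipient came near the naive range. C4b rose 8.74-fold with Th17 cells (log2 difference 3.13, SE 0.11, limma adjusted p = 1.22e-18) and 10.0-fold with Th1 cells (3.32, SE 0.11, limma adjusted p = 3.33e-19). C4a, a close copy of C4b in the mouse, was not analysed here, and signal shared between the copies cannot be told apart.

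C2, the protease of the classical convertase (probe set 1416051_PM_at), was dim in naive mice. Its values were 5.04, 5.36, 5.02, 5.06 and 5.54 in wild-type Th17 recipients, 6.15, 5.74, 6.22, 6.40 and 6.07 in Th1 recipients and 3.07, 3.04, 2.82, 2.97 and 2.86 in naive wild-type mice. All 3 groups were separate, with Th1 recipients on top. The rise was at least 3.34-fold in Th17 recipients (log2 difference 2.25, SE 0.14, limma adjusted p = 4.32e-13) and at least 6.29-fold in Th1 recipients (3.17, SE 0.14, limma adjusted p = 2.58e-16).

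Cfb, which encodes factor B, the protease of the alternative convertase, lies beside C2 on chromosome 17 (probe set 1417314_PM_at). It was dim in every naive mouse, at 2.70, 2.83, 2.69, 2.88 and 2.75 in wild-type animals. In wild-type Th17 recipients it read 9.47, 9.71, 9.70, 9.03 and 9.10, and in Th1 recipients 9.87, 9.98, 9.95, 10.11 and 9.86. The rise amounted to at least 61.3-fold in Th17 recipients (log2 difference 6.63, SE 0.12, limma adjusted p = 8.51e-25) and at least 89.8-fold in Th1 recipients (7.18, SE 0.12, limma adjusted p = 2.04e-25).

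Serping1 encodes the C1 inhibitor, which inactivates the proteases bound to C1q (probe set 1416625_PM_at). It stood at 10.57, 10.32, 10.57, 10.40 and 10.18 in wild-type Th17 recipients and 10.22, 10.50, 10.59, 10.13 and 10.25 in Th1 recipients, against 3.90, 4.41, 4.47, 4.08 and 3.82 in naive wild-type mice, so the inhibitor went the same way as the components. The rise was 77.3-fold in Th17 recipients (log2 difference 6.27, SE 0.15, limma adjusted p = 1.63e-22) and 73.5-fold in Th1 recipients (6.20, SE 0.15, limma adjusted p = 2.14e-22).

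C3ar1, the receptor of the fragment C3a, was read by 3 probe sets, of which 1419483_PM_at stands for the gene. That set gave 8.67, 8.64, 8.62, 8.45 and 7.87 in wild-type Th17 recipients, 8.52, 7.93, 8.32, 8.12 and 8.13 in Th1 recipients and 3.42, 3.20, 3.34, 3.03 and 3.02 in naive wild-type mice. Th17 recipient 5 lay below the other wild-type recipients of both kinds, and without it the groups of recipients still overlapped. C3ar1 was dim in naive mice and rose at least 31.7-fold with Th17 cells (log2 difference 5.25, SE 0.13, limma adjusted p = 6.89e-22), and at least 26.7-fold with Th1 cells (5.00, SE 0.13, limma adjusted p = 1.89e-21). The other 2 sets averaged 7.92 ± 0.338 and 7.09 ± 0.548 in Th17 recipients, 7.74 ± 0.182 and 6.82 ± 0.369 in Th1 recipients, and 3.15 ± 0.066 and 3.16 ± 0.192 in naive wild-type mice (SD, n = 5 each), the same order of groups.

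C5ar1, the receptor through which C5a attracts neutrophils and monocytes, was likewise dim in naive mice (probe set 1422190_PM_at). It read 5.61, 5.17, 6.47, 5.84 and 5.92 in wild-type Th17 recipients, 5.17, 4.61, 5.00, 4.44 and 4.24 in Th1 recipients and 2.84, 2.76, 2.69, 3.27 and 2.87 in naive wild-type mice. Every Th17 recipient was above every Th1 recipient, though the lowest Th17 value and the highest Th1 value nearly met. The rise over naive mice was at least 5.05-fold in Th17 recipients (log2 difference 2.91, SE 0.18, limma adjusted p = 1.77e-13) and at least 2.35-fold in Th1 recipients (1.81, SE 0.18, limma adjusted p = 3.41e-09).

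**Figure D2:**
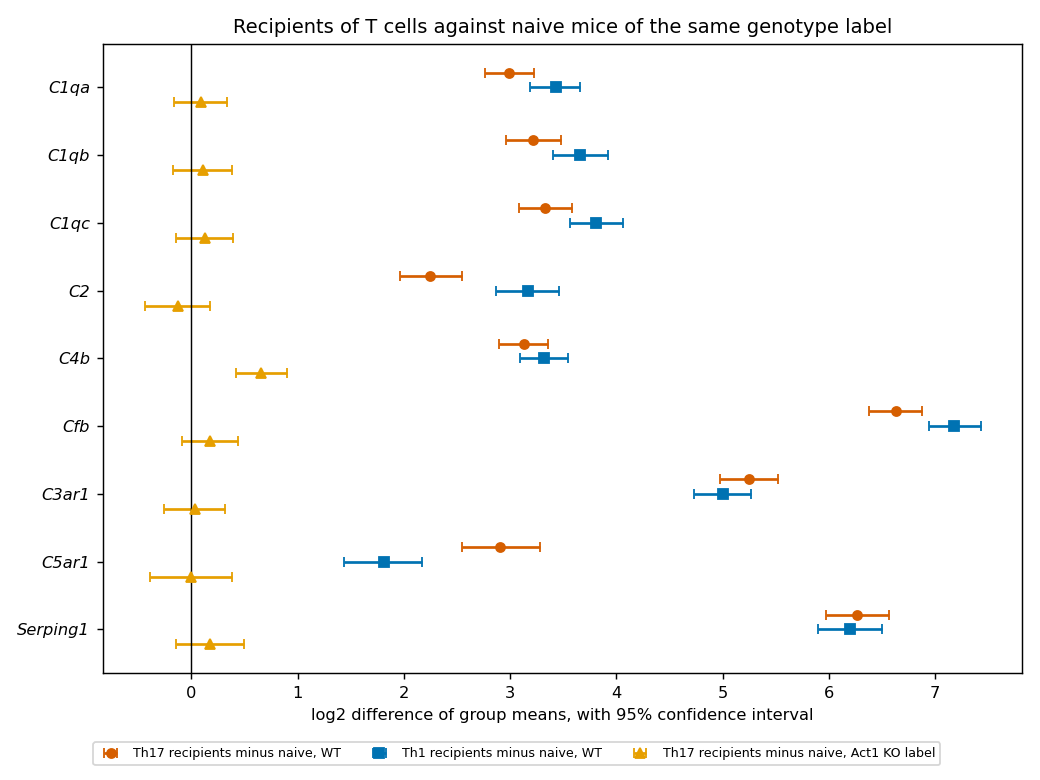
Log2 difference of group means with its 95% confidence interval (horizontal axis) for the 9 measured members (vertical axis), for wild-type Th17 recipients (circles), wild-type Th1 recipients (squares) and Th17 recipients labelled Act1 KO (triangles), each against naive mice of the same label. Differences run from 1.81 to 7.18 in wild-type recipients and from -0.13 to 0.66 in recipients labelled Act1 KO, where C4b is the 1 gene whose interval excludes 0.

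The rises went with markers of other cells in the same arrays. The mean level of 9 monocyte and macrophage markers was 8.78 to 9.06 in wild-type Th17 recipients and 8.53 to 8.88 in Th1 recipients, against 3.37 to 3.49 in naive wild-type mice, in which 5 of the 9 were dim, and of 8 T cell markers 5.65 to 5.97 and 5.30 to 5.69, against 2.82 to 2.95 with all 8 dim. The 8 measured microglia markers went both ways, 4 higher and 4 lower in Th17 recipients (log2 differences of -0.89 to 2.22) and 4 higher and 3 lower in Th1 recipients (-1.15 to 2.32). Their mean level was 5.97 to 6.22 in Th17 and 6.06 to 6.47 in Th1 recipients, against 5.45 to 5.70 in naive mice. The part of these cells in the rise of the complement genes was not tested.

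Set against each other, wild-type Th17 recipients had less C2 and more C5ar1 than Th1 recipients. Lower values of Cfb, C1qa and C1qc were called as well, but those calls were lost under other settings of the fit. No member was called by the methods' t-test, which called 69 of all genes here. None was called by the exact Mann-Whitney test either, but its smallest possible p did not pass the adjustment, so it could keep no call. By limma 5 of the 9 members were called, where 3.00% of all genes were: C5ar1 was higher in Th17 recipients, as 1.91% of all genes were, and C1qa, C1qc, C2 and Cfb were lower, as 1.09% were. Differences were small beside those from naive mice, with a median of -0.43 over the members.

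C5ar1 was 2.15-fold higher in Th17 than in Th1 recipients (log2 difference 1.11, SE 0.18, limma adjusted p = 0.000258). Its second probe set, 1439902_PM_at, averaged 5.71 ± 0.316 in Th17 recipients and 4.65 ± 0.665 in Th1 recipients (SD, n = 5 each). On that set the groups overlapped, with Th1 recipient 3 at 5.49 above Th17 recipient 4 at 5.28. Of 8 measured markers of neutrophils, a cell type that carries this receptor, 5 passed the threshold with the higher level after Th17 transfer and 3 did not pass it, with differences of -0.24 to 3.95, and 3 of the 8 were dim in every group. Their mean level was 5.18 to 5.69 in Th17 recipients, 3.84 to 4.82 in Th1 recipients and 2.98 to 3.51 in naive wild-type mice, and the part of neutrophils in the difference was not tested.

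C2 was lower in Th17 recipients, 5.20 ± 0.24 against 6.12 ± 0.24 in Th1 recipients (SD, n = 5 each), a log2 difference of -0.91 (SE 0.14, limma adjusted p = 0.000193). Cfb was also lower, 9.40 ± 0.32 in Th17 and 9.95 ± 0.10 in Th1 recipients (SD, n = 5 each), a log2 difference of -0.55 (SE 0.12, limma adjusted p = 0.00756). For both genes the 2 groups did not overlap, which 1.36% of all genes showed in this direction. C4b, the third convertase gene, was not called, with a difference of -0.19 and a 95% interval of -0.42 to 0.03.

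The C1q chains were lower in Th17 recipients by similar amounts, and C1qa (-0.44, limma adjusted p = 0.0313) and C1qc (-0.48, 0.0263) passed the threshold while C1qb (-0.43, 0.0608) did not. These calls lay near the threshold and were lost when 1 of several arrays was left out. That of C1qa was lost without Th17 recipient 2, 4 or 5 or Th1 recipient 3, 4 or 5, with an adjusted p of up to 0.118. That of C1qc was lost without Th17 recipient 2, 4 or 5 or Th1 recipient 3 or 4, with an adjusted p of up to 0.0932. The differences stayed at -0.52 to -0.34 for C1qa and -0.54 to -0.41 for C1qc. C1qb was called without Th17 recipient 1 or 3 or Th1 recipient 1, with an adjusted p down to 0.0116. The calls of C2, Cfb and C5ar1 were kept when any 1 of the 10 arrays was left out.

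Serping1 and C3ar1 gave no call between the transfers. For Serping1 the difference was 0.07 with a 95% interval of -0.23 to 0.37, and for C3ar1 0.24 with -0.03 to 0.51. A missed threshold does not show that the transfers act alike on these genes, and differences within the intervals remain possible.

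The sample titles carry a code in which a letter follows EP, and 3 of these letters (B, D and E) held 1 wild-type Th17 and 1 Th1 recipient each. Within them C2 differed by -1.18 to -0.80, Cfb by -0.48 to -0.15 and C5ar1 by 0.01 to 2.23, in the same direction as overall in each case. With the letter as a block C2 and C5ar1 were called (-0.97 with an adjusted p of 0.000893, and 0.98 with an adjusted p of 0.0144) and Cfb was not (-0.45, adjusted p = 0.0948). C1qa differed by -0.28 to -0.21 and C1qc by -0.37 to -0.19 within the letters, and neither was called with the letter as a block (adjusted p = 0.184 for C1qa and 0.152 for C1qc by limma). Without Th1 recipients 4 and 5, which stood apart from the rest of their group, the calls of C2 (-0.83) and C5ar1 (0.87) held, whereas those of Cfb (-0.53, adjusted p = 0.0551), C1qa (-0.38, adjusted p = 0.231) and C1qc (-0.44, adjusted p = 0.167) were lost.

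**Figure D3:**
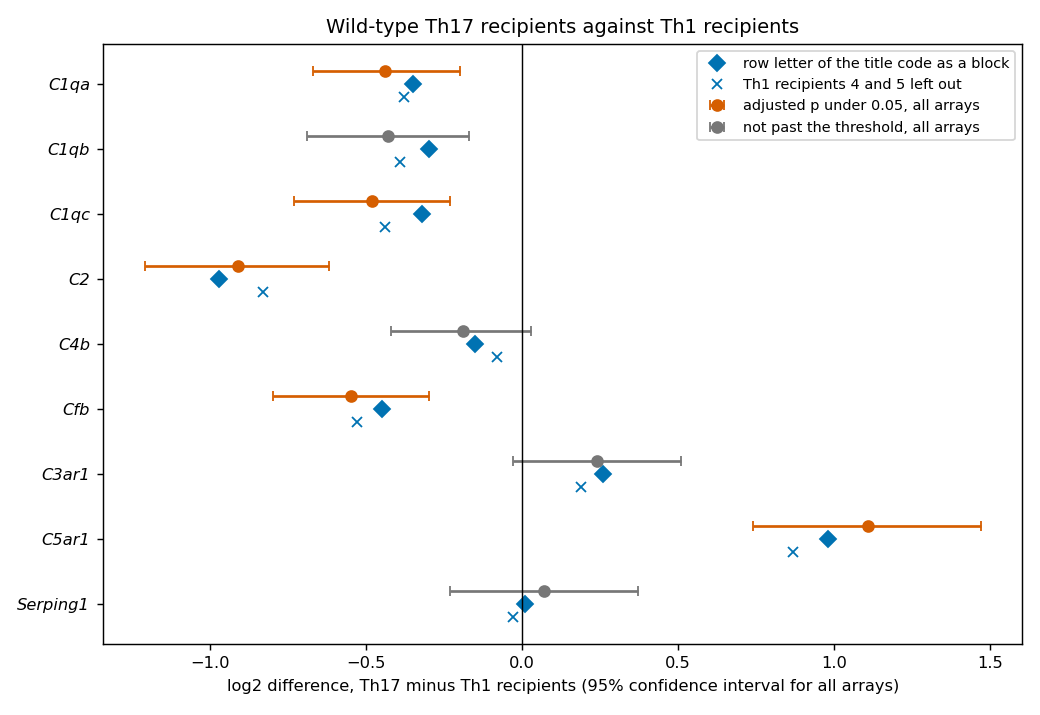
Log2 difference between wild-type Th17 and Th1 recipients (horizontal axis, Th17 minus Th1) for the 9 measured members (vertical axis). Circles with 95% confidence intervals use all arrays (orange where the adjusted p was under 0.05, grey elsewhere), diamonds have the letter of the title code as a block, and crosses leave out Th1 recipients 4 and 5. C2 at -0.91 and C5ar1 at 1.11 stand farthest from 0.

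In mice labelled Act1 KO the transfer of Th17 cells left no called difference in any member. None of the 17097 genes passed the adjusted threshold in that comparison (0.00% called by limma, with 1070 genes at an unadjusted p under 0.05, and 707 and 521 at that unadjusted level by the methods' t-test and the exact Mann-Whitney test, none of them after adjustment). Cfb read 3.03, 2.71, 3.10 and 2.78 in the Th17 recipients and 2.44, 2.71, 2.67, 2.98 and 2.84 in the naive mice of this label, Serping1 3.90, 4.27, 4.11 and 4.77 and 3.94, 4.30, 4.30, 4.00 and 3.88, and C3ar1 3.33, 3.31, 3.27 and 3.56 and 3.26, 3.31, 3.14, 3.49 and 3.48, so that the groups overlapped and Cfb and C3ar1 stayed dim in both.

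The C1q chains were at their naive level too. C1qa was at 7.24 to 7.50 in Th17 recipients and 7.20 to 7.43 in naive mice labelled Act1 KO, C1qb at 6.90 to 7.18 and 6.68 to 7.08, and C1qc at 6.76 to 7.25 and 6.41 to 7.07. The 95% intervals of the differences ended at 0.34 for C1qa, 0.38 for C1qb and 0.39 for C1qc, well short of the rises in wild-type mice. C2 (2.85 to 3.23 in recipients and 2.91 to 3.78 in naive mice) and C5ar1 (2.76 to 2.92 and 2.70 to 3.03) were dim in both groups, and no fold is given for them.

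C4b stood apart from the other 8. It read 8.16, 7.85, 7.90 and 8.11 in Th17 recipients and 7.36, 7.24, 7.12, 7.83 and 7.18 in naive mice labelled Act1 KO, and every recipient was above every naive mouse, as 0.813% of all genes were. The log2 difference was 0.66 (SE 0.12), with an unadjusted p of 7.90e-06 and an adjusted p of 0.0704 by limma, and with p = 0.0159 by the exact permutation test (two-sided, 4 against 5 arrays, smallest possible 0.00794). Left out in turn, the arrays moved the adjusted p between 0.000711 and 0.195, with a call without Th17 recipient 2 or without naive mouse 4 of this label, the highest of its group at 7.83.

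Naive mice of the 2 labels differed in C4b alone among the members. The naive KO-labelled values just given lay below all 5 naive wild-type values, 7.95, 7.85, 7.90, 8.03 and 8.15, a pattern that 1.04% of all genes showed downward. C4b averaged 7.35 ± 0.28 in naive mice labelled Act1 KO and 7.98 ± 0.12 in naive wild-type mice (SD, n = 5 each), a log2 difference of -0.63 (SE 0.11, limma adjusted p = 0.00295), where 0.585% of all genes were called. The Th17 recipients labelled Act1 KO, at 8.01 ± 0.154 (SD, n = 4), were at the level of naive wild-type mice. With the letter of the title code as a block the difference between naive groups was -0.70 and no longer called (adjusted p = 0.0821), and the 1 letter that held a naive mouse of each label (F) gave -0.84. The other 8 members differed by -0.19 to 0.20 between naive mice of the 2 labels.

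Among Th17 recipients all 9 members were lower in mice labelled Act1 KO than in wild-type mice, where 42.2% of all genes were called and 17.6% were called lower. The difference between the responses of the 2 labels was called for all 9 as well, where 32.0% of all genes were called and 13.8% were lower. It was -6.46 for Cfb (SE 0.18, limma adjusted p = 1.74e-20), -6.10 for Serping1 (SE 0.21, 3.01e-18) and -5.22 for C3ar1 (SE 0.19, 7.69e-18). It was -2.39 for C2 (SE 0.21, 5.66e-10) and -2.47 for C4b (SE 0.16, 1.60e-12).

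Markers of monocytes and macrophages, neutrophils and T cells followed the same split, but those of resident cells did not. Between Th17 recipients of the 2 labels the 8 microglia markers went both ways, with log2 differences of -2.44 to 0.79. With the KO label 4 of them were called lower, 2 were called higher and 2 were not called. All measured oligodendrocyte markers (0.26 to 0.88) and neuronal markers (0.54 to 0.71) were higher with the KO label. In Th17 recipients labelled Act1 KO the 9 monocyte and macrophage markers averaged 3.43 to 3.59 with 6 of 9 dim, the 8 neutrophil markers 2.99 to 3.07 with 7 of 8 dim, and the 8 T cell markers 2.89 to 3.04 with 7 of 8 dim, against 3.42 to 3.63, 3.10 to 3.33 and 2.83 to 3.04 in naive mice of that label. The part of these cells in the difference between labels was not tested, and the extent of disease in each animal is not among the labels used here.

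Of 49 further complement genes listed by role, 41 were measured and 22 of these were dim in all groups. In wild-type Th17 recipients 10 were higher and 6 lower than in naive mice, and in Th1 recipients 12 were higher and 6 lower, with a median difference of 0.04 and 0.01, against -0.05 and -0.06 over all genes. Over all genes 43.5% were called and 18.0% called higher with Th17 cells, and 40.8% and 16.7% with Th1 cells, so that nothing is read from these counts about the list. In Th17 recipients 25 of the 41 and in Th1 recipients 23 were not called. Genes with values below are those called with the largest change of their role class in Th17 recipients and those called between Th17 and Th1 recipients, and C1ra, C1s1, Masp1, Colec12, Hc, Susd4, Csmd1, Cd55 and Cd59a, which were chosen after their values were seen.

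The proteases that C1q carries went up with it. C1ra rose by 4.62 in Th17 and 4.68 in Th1 recipients over a dim naive level, at least 17.1-fold and at least 17.8-fold, and C1s1 by 3.52 and 3.55 (SE 0.13 each, limma adjusted p = 1.72e-18 and 1.50e-18). C1ra and its copy C1rb can share signal. Masp1, a protease of the lectin pathway, was lower by 0.90 and 0.90. Of the other Masp, mannose-binding lectin, ficolin and collectin genes listed, only Colec12 was called, by 0.22 in Th1 recipients between groups that were both dim.

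Ptx3, a pentraxin that binds C1q, separated the transfers most. It was at 7.87 ± 0.30 in Th17 recipients, 5.01 ± 0.51 in Th1 recipients and 2.82 ± 0.19 in naive wild-type mice (SD, n = 5 each), with a Th17 to Th1 difference of 2.86 (SE 0.17, limma adjusted p = 2.56e-11). Itgax, a chain of complement receptor 4, ran the other way, at -1.48 (SE 0.14, limma adjusted p = 7.81e-08), while Itgb2, the chain shared by both, rose over naive mice by 6.19 in Th17 and 6.35 in Th1 recipients. Itgam, of complement receptor 3, was higher in Th17 recipients by 0.52 (adjusted p = 0.038) and Vtn, a fluid inhibitor of the terminal complex, was lower than in Th1 recipients (-0.59, adjusted p = 0.0219) and than in naive mice (-0.58, adjusted p = 0.00195). No other of the 41 was called between Th17 and Th1 recipients.

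Properdin (Cfp), which stabilises the alternative convertase, rose by 4.28 in Th17 and 3.73 in Th1 recipients (SE 0.25 each). Of the 6 measured genes of the terminal pathway, all dim in every group, none was called in Th17 recipients, and 1 was in Th1 recipients, Hc, which encodes C5 (0.24). The membrane regulators were divided: Cr1l rose by 1.27 in Th17 and 1.22 in Th1 recipients, whereas Susd4 (-0.85 and -0.61), Csmd1 (-0.57 and -0.58), Cd55 (-0.42 and -0.36) and Cd59a (-0.24 and -0.35) were lower in both. None of the 41 was called between Th17 recipients and naive mice labelled Act1 KO, nor between naive mice of the 2 labels.

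**Figure D4:**
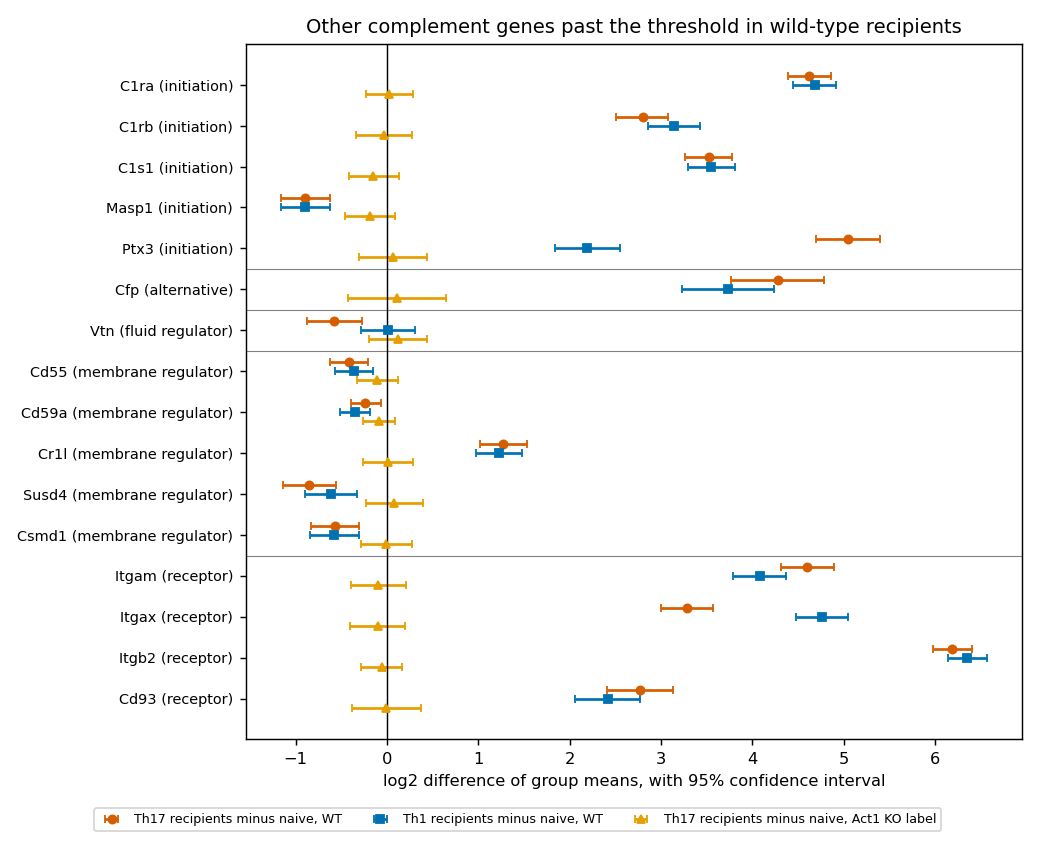
Log2 difference of group means with its 95% confidence interval (horizontal axis) for 16 further complement genes (vertical axis, role in brackets) that were called in wild-type Th17 or Th1 recipients and were not dim in every group. Circles are wild-type Th17 recipients, squares wild-type Th1 recipients and triangles Th17 recipients labelled Act1 KO, each against naive mice of the same label. Ptx3 (5.05 in Th17 and 2.19 in Th1 recipients) and Itgax (3.28 and 4.76) differ most between the transfers, and the triangles lie near 0.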

How the data were processed

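Spinal cord RNA of 24 mice was hybridized to Affymetrix HT mouse arrays. The authors deposited log2 expression values of 45118 probe sets made by RMA, whose version is not given in the sources used here. RMA makes the distributions of arrays alike, so that a general rise or fall of RNA in a group would be removed.

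The platform annotation gave 1 symbol to 28898 probe sets, several to 551 and none to 15669, and the first kind was used, which left 17097 genes. Group means were fitted to all 24 arrays without a block with limma 3.58.1 in R 4.3.3 (lmFit and eBayes), after a test of the fit on simulated data. Exact permutation tests used Python 3.11.15. The number of arrays limits the precision, and p-values measure the spread between mice. Same-group arrays correlated at 0.986 to 0.997 over genes, and no 2 arrays were identical.

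Members, lists (other complement genes, cell markers) and named genes were chosen with earlier results of these data known. Values were given for all measured members and, among other complement genes, for the largest called change in Th17 recipients of each role class and for calls between Th17 and Th1 recipients. Those of C1ra, C1s1, Masp1, Colec12, Hc, Susd4, Csmd1, Cd55 and Cd59a were added after they had been seen. The genes most like each member were not reported, since recipient arrays form separate clusters. Alternatives covered probe set choice, a filter on dim genes, scaling, the variance model, array weights, blocks, left-out arrays, the methods' t-test, the Mann-Whitney test and a 2-fold threshold.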

Additional observations from a re-analysis of the deposited data

Results flagged for a closer look

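In 3 of the 45 gene and group combinations examined, 1 array lay far from the others of its group, where chance alone would do so in about 1 of 20. C2 read 3.78 in naive mouse 4 labelled Act1 KO, the highest of 5, while the others of that group read 2.91 to 3.14. C3ar1 read 7.87 in wild-type Th17 recipient 5, the lowest of 5, against 8.45 to 8.67 in the rest. C5ar1 read 2.76 in Th17 recipient 4 labelled Act1 KO, the lowest of 4, against 2.90 to 2.92, all of them dim.

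The response to Th17 cells differed between mice labelled Act1 KO and wild-type mice for all 9 measured members by the interaction term of the limma fit. The differences, KO label minus wild type, were -2.91 for C1qa, -3.11 for C1qb, -3.21 for C1qc, -2.39 for C2 and -2.47 for C4b on the log2 scale. They were -6.46 for Cfb, -5.22 for C3ar1, -2.92 for C5ar1 and -6.10 for Serping1.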

How the results depend on the processing

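All 9 members stayed called in wild-type Th17 recipients against naive mice, in Th1 recipients against naive mice and between Th17 recipients labelled Act1 KO and wild-type ones under every alternative that gave a value, also when each array was centred on its ribosomal protein genes (a shift of the overall median by -0.40, -0.46 and 0.35). The difference of the responses stayed called for all 9 too, and the t-test and the Mann-Whitney test could give no value for it. Between Th17 and Th1 recipients the 5 calls became 3 when only those groups were fitted, 2 with the letter of the title code as a block, 2 without Th1 recipients 4 and 5, 1 with a 2-fold threshold, 0 with the methods' t-test and 0 with the exact Mann-Whitney test, and 3 to 6 with 1 array left out. Both of these tests were adjusted over all genes, of which the t-test called 69 here and the Mann-Whitney test 0. The smallest p of the latter with 5 arrays against 5, 0.00794, did not pass the adjustment here, so it could keep no call. Between Th17 recipients and naive mice labelled Act1 KO the count of 0 became 1, C4b, with the median of probe sets, with trend and robust variance, with array weights, with the letter as a linear term and with the replicate block, and 0 to 1 with 1 array left out (without Th17 recipient 2 or naive mouse 4). Between naive mice of the 2 labels the 1 call, C4b, became 0 with the letter as a block, with either of the other tests and with the 2-fold threshold. After adjustment the t-test called 11 of all genes in this comparison and the Mann-Whitney test 0, so the latter could keep no call here either. Unadjusted, C4b had the smallest possible p by the exact permutation test (0.00794). The cause of these changes was not tested.

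Replicate numbers were not treated as pairs in the main fit. Deviations of same-numbered arrays correlated at -0.29 to 0.44, with a median of 0.04, against 0.01 for other pairs in different groups. Of 46 same-numbered pairs 16 were over 0.1, and whether same-numbered mice had been handled together was not tested. With the replicate block 6 members were called between Th17 and Th1 recipients, C1qb being added, and C4b (0.67, adjusted p = 0.0407) was called between Th17 recipients and naive mice labelled Act1 KO. No other call among the members changed.

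Signs turned only for small differences that had not passed the threshold. Between Th17 and Th1 recipients Serping1 was -0.03 without Th1 recipients 4 and 5. Between Th17 recipients and naive mice labelled Act1 KO, C2 was 0.03 with array weights and 0.04 with the letter as a block, C3ar1 -0.07 with the median of probe sets, -0.03 with ribosomal centring and -0.01 with either block, and C5ar1 0.02 with the median of probe sets, 0.04 with array weights and 0.32 with the letter as a block. With 1 array left out they ranged over -0.21 to 0.02 for C2, -0.03 to 0.07 for C3ar1 and -0.05 to 0.03 for C5ar1. Between naive mice of the 2 labels C2 was -0.00 with the letter as a block, C5ar1 0.06 with the median of probe sets and 0.01 with median centring, and Serping1 0.01 with array weights and 0.02 with the letter as a linear term. With 1 array left out they ranged over -0.10 to 0.03 for Cfb, -0.06 to 0.08 for C5ar1 and -0.13 to 0.03 for Serping1.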

Other observations

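Resident cell markers are given as the mean level of each list, which does not show how single markers moved. Single astrocyte markers went both ways in wild-type recipients, and 1 was dim in every group. Their log2 differences from naive wild-type mice were -0.65 to 0.80 with Th17 cells and -0.49 to 0.50 with Th1 cells. The 6 astrocyte markers averaged 8.10 to 8.20 in Th17 recipients labelled Act1 KO, 8.32 to 8.49 in wild-type Th17 recipients, 8.19 to 8.34 in Th1 recipients, 8.12 to 8.26 in naive mice labelled Act1 KO and 8.10 to 8.20 in naive wild-type mice. The 5 oligodendrocyte markers measured averaged 10.80 to 11.12, 10.26 to 10.46, 10.20 to 10.43, 10.67 to 10.87 and 10.88 to 11.04 in the same groups, so wild-type recipients of both kinds lay below the other groups while the complement genes lay above them.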
